A study of Prunus persica with 18 samples.

Results

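PpGA2ox6 (PRUPE_4G150200) and PpRSI-1 (PRUPE_3G161500) are gibberellin-related genes of peach (Prunus persica), and they were followed here in buds as 2 of the 26873 genes of the count matrix. They were taken by their identifiers, which the study singled out. The study had found both among the genes that changed in basal buds of these same libraries. Their changes with time in basal buds are therefore given below as a description, with no test. Those in apical buds and the differences between the bud positions were tested. The position contrasts and the interactions include the basal libraries, and the opposite course of the pair was known beforehand. These tests, those in apical buds too, are therefore not independent support for that course. The tissue was axillary buds of untreated Platinet 1 shoots, a flat nectarine, cut 45, 58 and 79 days after full bloom (DAFB). These time points are called T1, T3 and T5, and buds from the upper (apical) and lower (basal) part of a shoot were pooled separately. Each of the 6 groups had 3 biological replicates, and each replicate was a pool of buds from several shoots of field trees, for 18 RNA-Seq libraries in all. No group had received gibberellin, and all came from a single cultivar, orchard and season.

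Between 21114469 and 47286272 reads were counted in a library (median 32404377.5). Of the 18 libraries, apical T3 replicate 1 stood apart most, with a mean correlation across genes of 0.966 with the other libraries of its group, while replicates 2 and 3 of that group had 0.977 and 0.980, and the libraries of the other groups had between 0.985 and 0.994. Bud meristem genes were detected in all groups. Group means of TFL1, a repressor of flowering, lay between 7.13 and 26.2 CPM (the count of a gene scaled to a library total of 1000000), and those of CEN between 1.60 and 7.57 CPM. AP1, a floral meristem identity gene, was near the floor, with group means between 0.354 and 0.865 CPM from 6 to 37 counts per library. The gene table at hand matched 0 of the identifiers, so no genome position or sequence of either gene is given, and no other gibberellin gene could be named from it.

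Gibberellins are diterpenoid hormones that promote growth of shoots, and in many fruit trees they inhibit flowering. Gibberellin 2-oxidases, the family of PpGA2ox6, hydroxylate gibberellins and so remove them from the active pool, and in Arabidopsis several genes of the family are themselves induced by gibberellin. PpRSI-1 belongs to the GASA/GAST family of small secreted peptides rich in cysteine, many of which are regulated by gibberellin, and takes its name from RSI-1 of tomato, a gene known from lateral root initiation.

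PpGA2ox6 transcripts were at a similar level in both bud types at T1, were somewhat higher at T3 and were several times higher at T5. In apical buds, the level in the 3 replicates was 180.0, 168 and 159 CPM in the T1 libraries, 237, 214 and 237 CPM in those of T3, and 1529, 1991 and 1763 CPM in those of T5. In basal buds, it was 183, 190.0 and 215 CPM at T1, 336, 299 and 263 CPM at T3, and 1480.3, 1557 and 1799.9 CPM at T5. Every T5 library of either position was therefore above every T1 and T3 library, and within each position the 3 time points did not overlap. The raw counts behind these levels ran from 4514 in apical T3 replicate 2 to 76072 in apical T5 replicate 2, so that counting error was small beside the spread between replicates. In buds, as bulk samples, fewer cells that express a gene and less RNA per cell cannot be told apart.

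**Figure D1:**
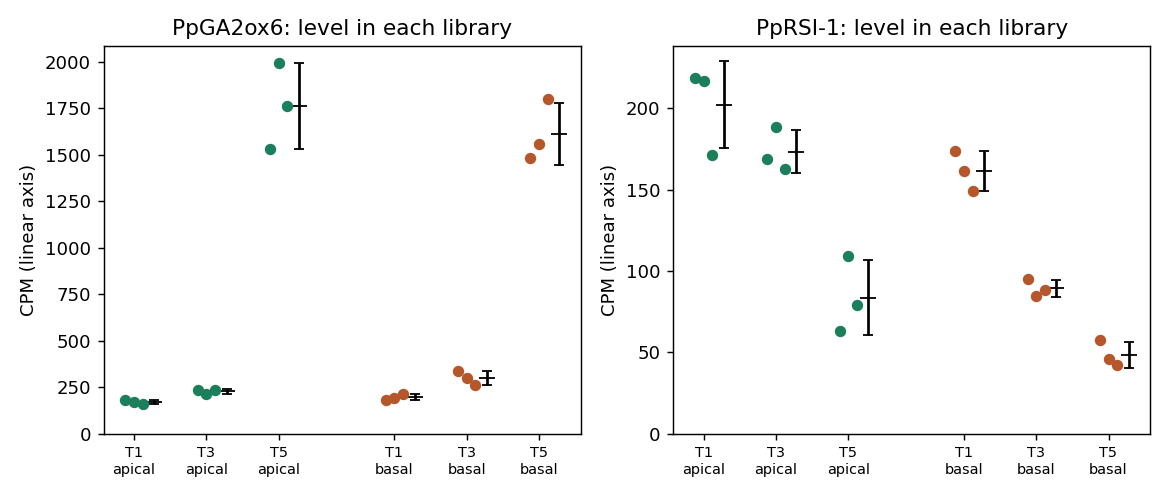
Level of PpGA2ox6 (left) and PpRSI-1 (right) in each of the 18 libraries, in CPM on linear axes that start at 0; points are the 3 replicates of each group, and the bars beside them the mean ± SD. PpGA2ox6 stayed between 159 and 336 CPM at T1 and T3 and lay between 1480.3 and 1991 CPM at T5, while PpRSI-1 was lower at T5 than at T1 in both bud types.

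Ordered by group mean, PpGA2ox6 was lowest in apical T1 buds (169 ± 10.4 CPM, SD, n = 3), followed by basal T1 (196 ± 16.9), apical T3 (229.5 ± 13.6), basal T3 (299 ± 36.2), basal T5 (1612 ± 167) and apical T5 (1761 ± 231). Among neighbours in this order, basal T1 and apical T3 overlapped in CPM, and so did basal T5 and apical T5. All the other neighbouring groups were separated in CPM in every library. In CPM rescaled between libraries by TMM, as in the tests, basal T1 and apical T3 were separated. Apical T1 (153 to 172) and basal T1 (171 to 200) then overlapped. The gene took 0.0169% of all counts in apical buds at T1 and 0.176% at T5.

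The rank of PpGA2ox6 among the 26873 genes by CPM moved in the same order. It was between 1038 and 1238 in apical and between 827 and 1026 in basal buds at T1, and between 723 and 834 in apical and 422 and 615 in basal buds at T3. At T5 it was among the genes with the highest CPM, with ranks of 28, 19 and 28 in apical and from 23 to 33 in basal buds. CPM is not corrected for transcript length, so that a rank by CPM also depends on the length of the gene, and only its shift between groups can be read.

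In apical buds, the rise of PpGA2ox6 from T3 to T5 was 7.91-fold, or 2.98 on the log2 scale (SE 0.15), and passed the threshold (edgeR quasi-likelihood test, FDR = 1.65e-06; a call needed an FDR under 0.01 together with at least a 2-fold change). In this contrast 8.65% of the 19636 genes tested were called higher, and PpGA2ox6 was the 179th of those 1698 genes by size of change. Between T1 and T5, which shares the T5 libraries with the previous contrast, the rise was 11.5-fold, or 3.52 on the log2 scale (SE 0.16, edgeR FDR = 8.49e-07), and the gene was 141st of the 1859 genes (9.47%) called higher. From T1 to T3 the apical libraries did not overlap, but the change of 0.54 on the log2 scale (SE 0.14, 95% interval 0.22 to 0.85) was not called (edgeR FDR = 0.125). Only 0.056% of the genes tested were called in that contrast. Without apical T3 replicate 1, the library that stood apart, the changes of PpGA2ox6 were 0.50 from T1 to T3, 3.02 from T3 to T5 and 3.52 from T1 to T5 on the log2 scale, with the same calls.

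In basal buds, PpGA2ox6 was 1.58-fold higher at T3 than at T1 (0.66 on the log2 scale, SE 0.11; 0.927% of genes were called in either direction), 5.96-fold higher at T5 than at T3 (2.57, SE 0.12), and 9.43-fold higher at T5 than at T1 (3.24, SE 0.12). The last 2 of these were past the limits for a call, in contrasts in which 8.46% and 9.41% of the 19304 genes tested were called higher. As the gene was picked on these libraries, nothing is read from those calls.

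PpRSI-1 transcripts took the opposite course and were lower at T5 than at T1 in both bud types. In apical buds, the replicates had 219, 217 and 171 CPM at T1, 169, 188 and 163 CPM at T3, and 63.0, 109 and 79.2 CPM at T5. In basal buds, they had 174, 162 and 149 CPM at T1, 94.97, 84.7 and 88.5 CPM at T3, and 57.5, 46.2 and 42.1 CPM at T5. The apical libraries of T1 and T3 overlapped and those of T5 lay below both, and in basal buds each time point lay below the one before. Raw counts of PpRSI-1 ran from 1193 in basal T5 replicate 2 to 6948 in apical T1 replicate 3.

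From highest to lowest group mean, PpRSI-1 had 202 ± 26.8 CPM (SD, n = 3) in apical T1 buds, 174 ± 13.2 in apical T3, 161 ± 12.3 in basal T1, 89.4 ± 5.19 in basal T3, 83.7 ± 23.3 in apical T5 and 48.6 ± 7.96 in basal T5. Apical T1 overlapped with apical T3, apical T3 with basal T1, and basal T3 with apical T5. In CPM rescaled by TMM, apical T3 (163 to 191) and basal T1 (139 to 162) did not overlap. Relative to its mean, the spread was widest in apical T5 buds (coefficient of variation 27.8%), where replicate 1 had 63.0 and replicate 2 had 109 CPM.

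In rank by CPM, PpRSI-1 lay between 813 and 1133 in apical and 1119 and 1395 in basal buds at T1, and still between 999 and 1207 in apical buds at T3. It lay between 2470 and 2818 in basal buds at T3, between 2037 and 3815 in apical buds at T5, and between 4018 and 5037 in basal buds at T5. Both genes thus started from neighbouring ranks around the thousandth place, and at T5 PpGA2ox6 was far above PpRSI-1 in rank in every library.

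**Figure D2:**
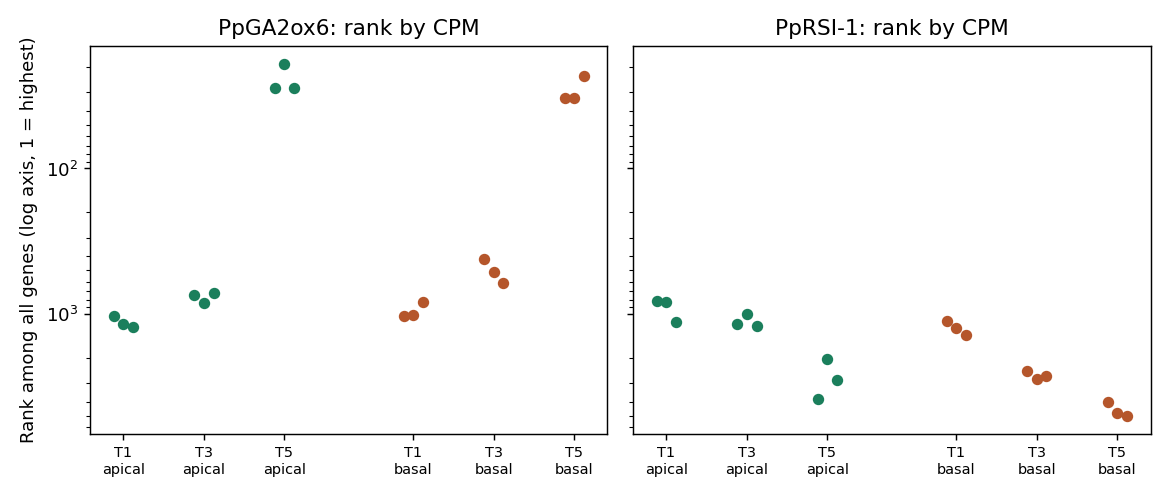
Rank of PpGA2ox6 (left) and PpRSI-1 (right) by CPM among the 26873 genes in each of the 18 libraries, on a log axis with the highest level at the top. PpGA2ox6 moved up to ranks 19 to 33 at T5, and PpRSI-1 moved down to ranks 2037 to 5037.

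The fall of PpRSI-1 in apical buds was tested in the same way. From T1 to T3 its change was -0.13 on the log2 scale (SE 0.21, 95% interval -0.59 to 0.34, edgeR FDR = 0.720) and was not called. Between T3 and T5 it fell by 1.00 on the log2 scale (SE 0.21, edgeR FDR = 0.00333), a change that sat on the 2-fold limit and was no longer called with median-of-ratios scaling or DESeq2. Between T1 and T5 it fell by 1.13 (SE 0.21, 2.19-fold, edgeR FDR = 0.0016). Genes called lower made up 12.1% of those tested from T3 to T5 and 12.8% from T1 to T5. Without apical T5 replicate 1, the library with the lowest apical level, these changes were -0.80 on the log2 scale (edgeR FDR = 0.00674) and -0.93 (edgeR FDR = 0.00306), and neither reached 2-fold. Without apical T3 replicate 1 they were -1.01 (edgeR FDR = 0.00263) and -1.13 (edgeR FDR = 0.000615), and both were called. Apical T5 replicate 1 was also the least typical of its group, with a mean correlation of 0.985, against 0.987 and 0.988 for replicates 2 and 3. The chi-square per gene between replicates was 45.6 and 28.1 in its pairs with replicates 2 and 3, and 12.9 between those. By the study's account, a single apical replicate of the last time point clustered next to the basal buds, but its text does not say which.

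In basal buds, PpRSI-1 was 1.74-fold lower at T3 than at T1 (-0.80 on the log2 scale, SE 0.086), 1.67-fold lower at T5 than at T3 (-0.74, SE 0.088), and 2.91-fold lower at T5 than at T1 (-1.54, SE 0.089). The change from T1 to T5 was past the limits for a call, as were 9.87% of the genes tested in the direction of a fall, and the other changes were below 2-fold. These values, too, describe libraries on which the gene was picked.

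Between the bud positions, PpRSI-1 was called higher in apical buds at T3 and at no other time point, and PpGA2ox6 was not called at any. At T3, all apical libraries of PpRSI-1 (163 to 188 CPM) were above all basal ones (84.7 to 94.97 CPM), and the difference of 2.01-fold (1.00 on the log2 scale, SE 0.17, edgeR FDR = 0.00039) was called. Like the apical fall, it sat on the 2-fold limit, and it was at 0.94 and 0.96 on the log2 scale without apical T3 replicate 2 and without basal T3 replicate 2, where it was not called, and at 1.02 without apical T3 replicate 1. In this contrast 5.75% of the 19754 genes tested were called higher in apical buds. At T5 the positions again did not overlap (63.0 to 109 against 42.1 to 57.5 CPM), with a difference of 1.69-fold (0.76, SE 0.17, edgeR FDR = 0.0119) that was not called. It was 0.96 without apical T5 replicate 1. At T1 the libraries of PpRSI-1 overlapped in CPM, but not in CPM rescaled by TMM (165 to 209 in apical and 139 to 162 in basal buds). The difference at T1 was 0.35 (SE 0.17, 95% interval -0.013 to 0.71, edgeR FDR = 0.158).

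PpGA2ox6 was lower in apical than in basal buds by 0.19 on the log2 scale at T1 (-0.19, SE 0.13, edgeR FDR = 0.342) and by 0.33 at T3 (-0.33, SE 0.13, 95% interval -0.62 to -0.051, edgeR FDR = 0.0506). In CPM the 3 apical libraries lay below the 3 basal ones at both time points. In CPM rescaled by TMM this held at T3 only, and at T1 apical replicate 1 (172) was above basal replicate 1 (171). In these contrasts 4.91% and 9.12% of genes were called in either direction, and the share of genes without overlap was not counted. At T5 the libraries overlapped, and the difference was 0.089 (SE 0.13, 95% interval -0.19 to 0.37, edgeR FDR = 0.746). At that time point 1.16% of genes were called, a count of 229 that was 150 with the replicate number as a block.

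Whether the change with time differed between apical and basal buds was tested as an interaction, and neither gene was called in any of the 3 intervals, with edgeR or with DESeq2. For PpRSI-1, the apical change from T1 to T3 minus the basal one was 0.66 on the log2 scale (SE 0.24, 95% interval 0.14 to 1.17), with an unadjusted p of 0.0154 and an edgeR FDR of 0.198. From T3 to T5 it was -0.24 (SE 0.24, edgeR FDR = 0.502), and from T1 to T5 0.41 (SE 0.24, edgeR FDR = 0.339). For PpGA2ox6 these differences were -0.15 (SE 0.19, edgeR FDR = 0.670), 0.42 (SE 0.19, 95% interval 0.023 to 0.82, unadjusted p = 0.0396, edgeR FDR = 0.131) and 0.28 (SE 0.19, edgeR FDR = 0.420). A difference between the bud types in the course of either gene was therefore not shown. Of the genes tested, 0.0658%, 3.21% and 1.85% were called in the 3 intervals, which was 13, 635 and 365 genes, and 1, 334 and 238 with the replicate number as a block.

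**Figure D3:**
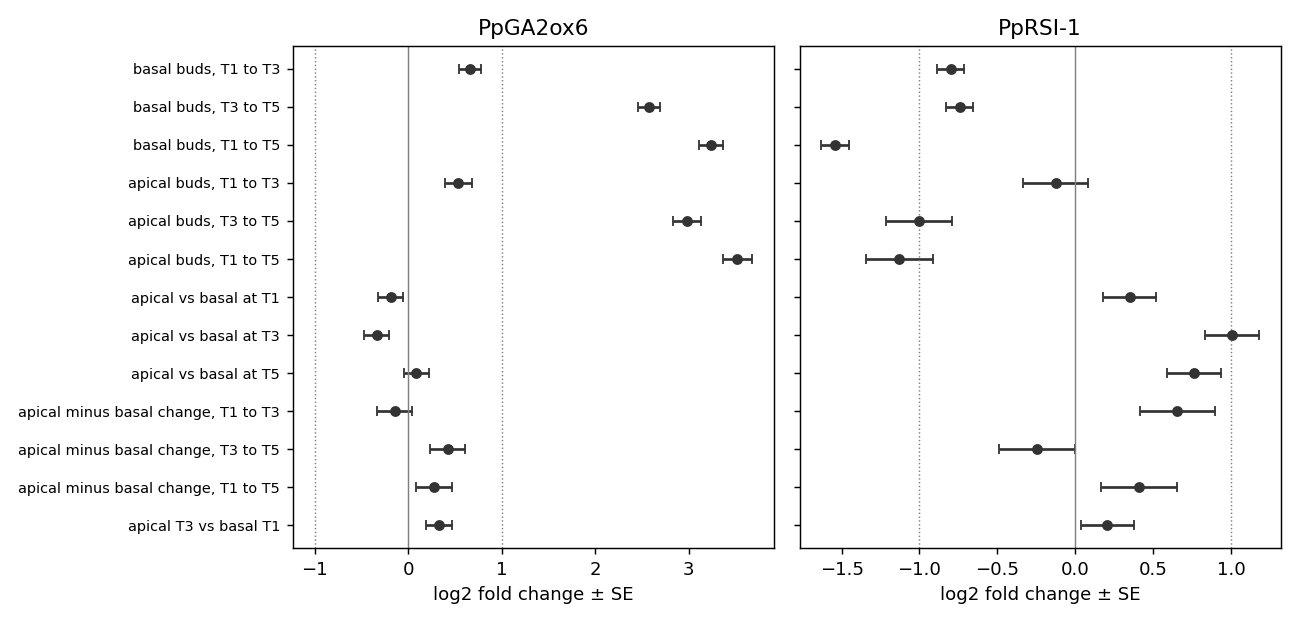
Log2 fold change ± SE of PpGA2ox6 (left) and PpRSI-1 (right) in each contrast, coded as the later over the earlier time point, apical over basal buds, or the apical minus the basal change; dotted lines mark a 2-fold change. The changes to T5 were the largest of PpGA2ox6, up to 3.52, and those of PpRSI-1 in apical buds and its difference between positions at T3 lay at or near the 2-fold line.

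The opposite course of both genes was also described within each library, as the ratio of their counts, in which the depth of the library cancels. The ratio is not corrected for the length of the transcripts, so that only its changes can be read. The log2 ratio of PpGA2ox6 to PpRSI-1 was -0.25 ± 0.13 (SD, n = 3) in apical T1 buds, 0.40 ± 0.19 in apical T3 and 4.42 ± 0.21 in apical T5. Basal T1 buds had 0.28 ± 0.23, basal T3 buds 1.74 ± 0.14 and basal T5 buds 5.06 ± 0.37. In single libraries, the count ratio went from between 0.776 and 0.929 in apical T1 to between 18.3 and 24.3 in apical T5, and from between 1.05 and 1.44 in basal T1 to between 25.8 and 42.7 in basal T5.

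Over the whole period the ratio rose by a similar amount in both bud types, 25.5-fold in apical and 27.5-fold in basal buds. By group means, the rise was split differently between the 2 intervals, and whether this differs between the bud types was not tested. In apical buds the ratio rose by 0.66 on the log2 scale from T1 to T3 and by 4.02 from T3 to T5, and in basal buds by 1.46 and 3.32. The basal libraries of T1 (0.077 to 0.53) and the apical libraries of T3 (0.18 to 0.54) covered overlapping ranges of the log2 ratio, while the basal libraries of T3 (1.57 to 1.82) lay above both. No test was made on the ratio, as the choice of this pair was made with its opposite course known.

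**Figure D4:**
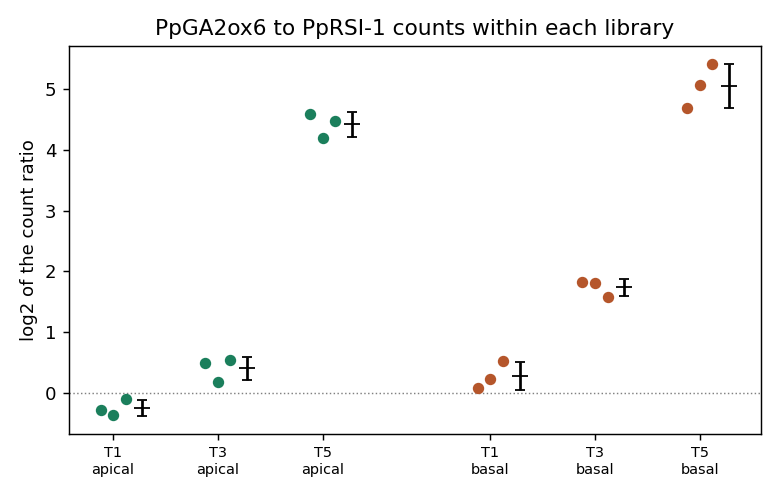
Log2 of the ratio of PpGA2ox6 to PpRSI-1 counts in each of the 18 libraries, with the mean ± SD of each group beside its 3 points; the dotted line marks equal counts. The ratio was higher at each later time point in both bud types, and basal T3 buds (1.57 to 1.82) were above apical T3 buds (0.18 to 0.54).

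Apical buds at T3 were also compared with basal buds at T1, the groups whose log2 ratios overlapped. Overlapping ratios already mean similar differences for the 2 genes, so the values below are not separate evidence that these groups are alike. PpGA2ox6 differed by 0.33 on the log2 scale (SE 0.13, 95% interval 0.046 to 0.61, edgeR FDR = 0.0558) and PpRSI-1 by 0.21 (SE 0.17, 95% interval -0.16 to 0.57, edgeR FDR = 0.337). In CPM the libraries overlapped for both genes. In CPM rescaled by TMM, the scaling of the tests, they overlapped for neither. PpGA2ox6 then had 171 to 200 in basal T1 and 217 to 241 in apical T3 buds. PpRSI-1 had 139 to 162 and 163 to 191. Of all genes tested, 7.69% were called in this contrast. The intervals leave differences of up to 1.53-fold for PpGA2ox6 and 1.48-fold for PpRSI-1.

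Across the 18 libraries, the log2 CPM of PpGA2ox6 and PpRSI-1 had a Pearson correlation of -0.80. The libraries fall into 6 groups, so this value mostly follows the group levels and is a description. It was not an extreme value among the genes. PpRSI-1 was the 2901st most negatively correlated of 19753 genes with PpGA2ox6 (14.7% from the lowest end), and PpGA2ox6 the 1044th with PpRSI-1 (5.29%). These places depended on the measure: with Spearman's rho they were 1838 (9.30%) and 1745 (8.83%), and over the 6 group means 3478 (17.6%) and 1769 (8.96%).

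By Pearson correlation of log2 CPM over the 18 libraries, the gene most like PpGA2ox6 was PRUPE_7G081600, for which no annotation was at hand, with a correlation of 0.993. It was 88th by Spearman's rho and 35th over the 6 group means. It had between 40.2 and 43.0 CPM at T1, between 53.2 and 65.2 CPM at T3 and between 206 and 295 CPM at T5, so that its libraries fell into the same 3 levels. The next gene also reached 0.993. The gene most like PpRSI-1 by the same measure was PRUPE_3G185700, at 0.967, likewise with no annotation, followed by a gene at 0.966. PRUPE_3G185700 was also first by Spearman's rho and 53rd over the group means. PRUPE_3G185700 was a transcript of low abundance, at 3.52, 4.86 and 3.65 CPM in apical and 2.51, 1.87 and 2.11 CPM in basal buds at T1. At T5 it had 0.886, 1.54 and 0.950 CPM in apical and 0.571, 0.388 and 0.328 CPM in basal buds, where 2 libraries rested on 10 counts each. Its apical libraries were above the basal ones at each time point, and apical T5 replicate 2 was the highest of the T5 libraries for this gene and for PpRSI-1. These genes were found by their likeness, so that no test was made on them.

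The genes with the 5 identifiers below and the 5 above each of the 2 genes on the same chromosome were also described, since peach identifiers are numbered along the chromosome. Of the 10 around PpGA2ox6, 6 passed the filter on low counts. In apical buds, 2 were called higher and 1 lower from T3 to T5, where 8.65% of all genes tested were called higher and 12.1% lower, and their median was 0.59 on the log2 scale against 0.00055 over all genes. In basal buds 2 were called higher, where 8.46% of all genes tested were, with a median of 0.63 against -0.024. The next lower identifier, PRUPE_4G150100, had a larger fold change to T5 than PpGA2ox6 itself, a difference that was not tested. So had PRUPE_4G149900, which rose from T3 to T5 by 4.05 on the log2 scale in apical and 3.85 in basal buds. Its means at T3 were only 0.076 and 0.072 CPM. With 0 to 5 counts in the T1 and T3 libraries, PRUPE_4G149900 passed the filter only through its T5 libraries. Its call as higher at T5 was therefore fixed in advance. The 2 neighbours called higher in each bud type and the medians above include it, so nothing is read from them. PRUPE_4G150100 was singled out after its values were seen, so its FDRs below are a description. It had 135, 99.2 and 116 CPM in apical buds at T1, 40.2, 145 and 127 CPM at T3, and 1772, 2388 and 2089 CPM at T5. In basal buds it had means of 116 ± 11.1, 142 ± 12.3 and 1936 ± 524 CPM (SD, n = 3) at the 3 time points.

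From T3 to T5, PRUPE_4G150100 rose 20.7-fold in apical buds (4.37 on the log2 scale, SE 0.43, edgeR FDR = 3.86e-05) and 15.2-fold in basal buds (3.92, SE 0.22, edgeR FDR = 4.91e-07). From T1 to T5 in apical buds, a contrast without the T3 libraries in either arm, the rise was 19.7-fold (4.30, SE 0.43, edgeR FDR = 3.33e-05). At T5 it ranked between 14 and 20 in apical and between 17 and 41 in basal buds. Its correlation with PpGA2ox6 over the 18 libraries was 0.968, the 211th highest. The 2 levels were not in a fixed ratio: in apical T3 replicate 1, PpGA2ox6 had 5.91 times the counts of PRUPE_4G150100, against 1.47 and 1.87 times in the other apical T3 libraries. That replicate was the library that stood apart, and PpGA2ox6, at 237 CPM, was within the range of its group there. Neither how ambiguous reads were counted nor the use of strand is given in the sources used here, and a sharing of reads between neighbouring or near-identical genes was not tested.

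Around PpRSI-1, 8 of 10 neighbours passed the filter, and 2 of them were called lower from T3 to T5 in each bud type, where 12.1% of all genes tested were called lower in apical and 8.9% in basal buds. Their median was -0.049 on the log2 scale in apical buds, against 0.00055 over all genes, and -0.055 in basal buds, against -0.024. The next higher identifier, PRUPE_3G161600, was called lower between T3 and T5 in both bud types, while its change from T1 to T3 in basal buds was 0.21 on the log2 scale (SE 0.068, edgeR FDR = 0.0538) and not called. This gene too was singled out after its values were seen, so its FDRs are a description. In basal buds it had 359 ± 26.0 CPM (SD, n = 3) at T1, 399.7 ± 7.20 CPM at T3 and 167 ± 7.20 CPM at T5, and in apical buds 418 ± 10.4, 397 ± 40.0 and 111 ± 8.84 CPM. It fell 3.48-fold from T3 to T5 in apical buds (-1.80 on the log2 scale, SE 0.11, edgeR FDR = 3.7e-06) and 2.18-fold in basal buds (-1.12, SE 0.069, edgeR FDR = 4.65e-08).

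At T5 the levels of PRUPE_3G161600 were the reverse of those of PpRSI-1, with apical buds at 102 to 120 CPM below basal buds at 161 to 175 CPM (-0.63 on the log2 scale, SE 0.088, edgeR FDR = 0.000777, a change under 2-fold). Its correlation with PpRSI-1 was 0.65.

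**Figure D5:**
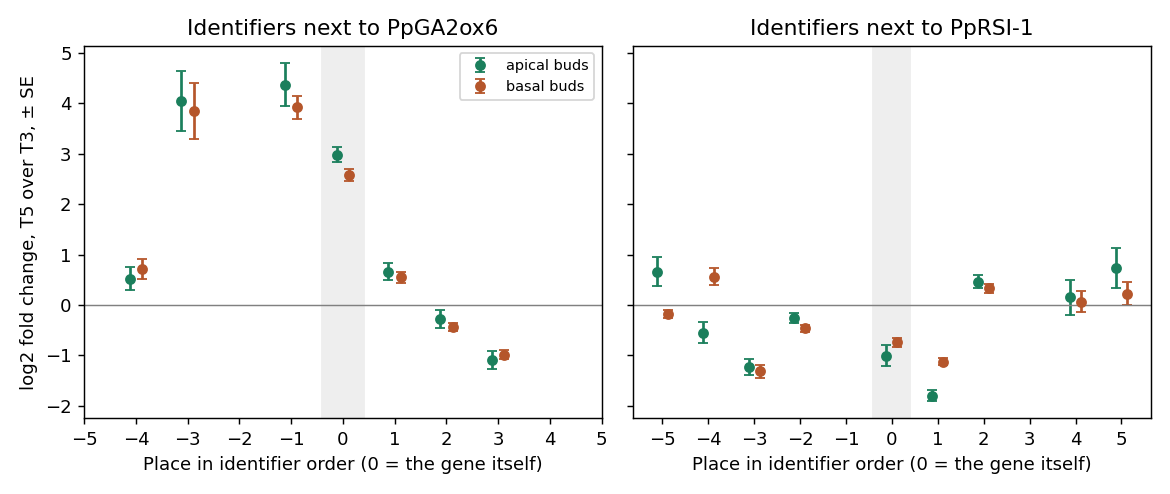
Log2 fold change ± SE from T3 to T5 in apical and basal buds of the genes with identifiers next to PpGA2ox6 (left) and PpRSI-1 (right), by place in identifier order, with the gene itself at 0 in grey; genes that did not pass the filter on low counts are not drawn. The identifier just below PpGA2ox6 rose by 4.37 in apical and 3.92 in basal buds, and 2 of the 8 drawn around PpRSI-1 were called lower in each bud type.

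The study named 12 other genes by identifier, several of them picked on these same libraries, so that their counts are not independent evidence. From T3 to T5 in apical buds, 3 of the 12 were called higher and 5 lower, in a contrast in which 8.65% of all genes tested were called higher and 12.1% lower, with a median of -0.046 on the log2 scale against 0.00055 over all genes. The genes that rose with PpGA2ox6 were TPS9 (2.81, SE 0.17, edgeR FDR = 3.21e-06) and TPS10 (2.54, SE 0.25, edgeR FDR = 4e-05), which belong to the trehalose phosphate synthase family, and TEF2 (2.21, SE 0.17, edgeR FDR = 1.19e-05), a translation elongation factor. TEF2 and UBQ10 were on the list as the genes by which the study normalized its qPCR. TPS9 went from between 25.0 and 33.3 CPM at T3 to between 181 and 230 CPM at T5 in apical buds, without overlap.

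The genes that fell with PpRSI-1 were the B-type cyclins CYCB1.2 (-2.44) and CYCB1.4 (-2.21), which act in cell division, TFL1 (-1.85), and SPL9.1 (-1.66) and SPL9.2 (-1.86), transcription factors that promote the change of phase and flowering in Arabidopsis. All 5 changes were larger in size than that of PpRSI-1 in apical buds over the same interval, which was not tested. At T3, CYCB1.2 (1.43, SE 0.18, edgeR FDR = 3.43e-05) and CYCB1.4 (1.52, SE 0.22, edgeR FDR = 0.000112) were called higher in apical than in basal buds, the contrast in which PpRSI-1 was called. They were the only 2 of the 12 called there, where 5.75% of all genes tested were called higher. SPL9.2 was just under the 2-fold limit in this contrast (0.98, SE 0.14, edgeR FDR = 7.93e-05). CYCB1.2 had 15.3 ± 1.83 CPM (SD, n = 3) in apical and 5.89 ± 0.074 CPM in basal buds at that time point, and 2.76 ± 0.11 and 2.55 ± 1.14 CPM at T5. At T5 neither this cyclin (0.040, SE 0.21, edgeR FDR = 0.934) nor PpRSI-1 (0.76, SE 0.17, edgeR FDR = 0.0119) was called between positions. The libraries of the cyclin overlapped there and those of PpRSI-1 did not. The apical fall of CYCB1.2 from T3 to T5 was larger than the basal one by 1.39 on the log2 scale (-1.39, SE 0.27, edgeR FDR = 0.00391), while the same difference for PpRSI-1 was -0.24. For CYCB1.4 it was -1.34 (SE 0.33, edgeR FDR = 0.0142), which was not called. Whether either cyclin differs from PpRSI-1 in this was not tested.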

How the data were processed

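RNA-Seq libraries of untreated apical and basal buds at T1, T3 and T5 were analysed. The authors aligned the reads to the peach genome v2.0.a1 with HISAT2 after FastQC, and counted them on public gene models with HTSeq; the deposited values are raw counts per gene and library, not normalized. Tool versions, counting mode and strand are not given in the sources used here. Columns were assigned by their names, and 0 were left unused.

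Counts were tested with edgeR 4.0.16 (R 4.3.3; quasi-likelihood, robust spread, TMM, filterByExpr) and adjusted by Benjamini-Hochberg over all genes tested. Time contrasts used the 9 libraries of a position, all others the 18 libraries. Calls needed an FDR below 0.01 and a 2-fold change. The SE is the log2 fold change over the square root of F. Likeness used log2 CPM with a prior count of 2. With 3 replicates per group precision is limited, and p-values measure the spread between replicates only. Figures used matplotlib 3.10.9.

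By the study's methods, both bud types of a replicate were taken off 1 set of shoots per sampling date, so library numbers pair apical with basal samples if numbering followed the shoots. Deviations of these pairs from the group means correlated between -0.067 and 0.18, with 1 of 9 pairs above 0.1. The main fits have no block.

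Alternatives were DESeq2 1.42.0, other scaling, filter, fit and spread settings, the replicate block, and each library left out. Named were the 2 genes, the 12 others the study names by identifier, the 2 genes most like each (1 identifier printed of each 2), and the nearest identifiers, of which PRUPE_4G150100 and PRUPE_3G161600 were singled out after their values were seen. Members and lists were chosen with earlier results of these data known.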

Additional observations from a re-analysis of the deposited data

How the results depend on the processing

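No direction of a called change was reversed by any alternative. The changes of PpGA2ox6 to T5 in apical buds were called under every alternative run. The fall of PpRSI-1 in apical buds from T3 to T5 dropped just under 2-fold with median-of-ratios scaling (-0.99), with DESeq2 (-0.99) and with all 18 libraries in 1 fit (-0.99), and with each of 9 libraries left out it ranged from -1.26 to -0.80, called in 6. Its fall from T1 to T5 ranged from -1.39 to -0.93, called in 8 of 9, and its difference between positions at T3 from 0.94 to 1.06, called in 16 of 18. At T5 that difference ranged from 0.50 to 0.96 and was called in none, at an FDR from 0.000608 to 0.0739 over all alternatives. The replicate block changed no call of either gene: with it, the apical fall of PpRSI-1 from T3 to T5 was -1.03 and its difference at T3 was 1.00. The block with numbers across time points, which the labels do not say are shared, took the genes called in apical buds from T1 to T3 from 11 to 0.

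Besides the counts with the replicate block given above, numbers of genes called moved by over 1.5 times in the following cases. DESeq2 called 180 genes in apical buds from T1 to T3 and 373 between positions at T5, and 139, 1046 and 701 in the 3 interactions. The fit of all 18 libraries called 116 in apical buds from T1 to T3, and fits of 6 libraries called 726 at T3 and 52 at T5 between positions, against 1802 and 229. Without apical T5 replicate 1, 486 genes were called at T5. A default estimate of the spread, added after the data were seen, changed no call of either gene.

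Ranked only among genes with a count, PpGA2ox6 was in apical and basal buds at 5.31% and 4.48% from the top at T1, 3.57% and 2.41% at T3, and 0.116% and 0.138% at T5. PpRSI-1 was at 4.27% and 5.87% at T1 and 5.23% and 12.4% at T3, and at 13.4% and 21.5% at T5. By Spearman's rho, the likeness of PRUPE_7G081600 to PpGA2ox6 was 0.934.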

Other observations

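The 2 intervals had different lengths, 13 days from T1 to T3 and 21 days from T3 to T5. Per day, PpGA2ox6 rose by 0.041 (SE 0.011) and then by 0.14 (SE 0.0072) on the log2 scale in apical buds, and its level in basal buds went up by 0.051 (SE 0.0088) and then by 0.12 (SE 0.0057). PpRSI-1 changed by -0.0097 (SE 0.016) and then by -0.048 (SE 0.010) per day in apical buds, and by -0.061 (SE 0.0066) and then by -0.035 (SE 0.0042) in basal buds. PpGA2ox6 was thus steeper in the later interval in both bud types, and PpRSI-1 in basal buds was steeper in the earlier one. The differences between intervals were not tested.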
